A study of Mus musculus with 8 samples.

Results

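Fkbp5 and 7 other genes of the glucocorticoid response (Tsc22d3, Zbtb16, Per1, Klf9, Sgk1, Ddit4 and the receptor gene Nr3c1) were followed through mouse kidney cells after ischemia-reperfusion injury. They were 8 of the 57010 genes in the deposited table, and they were chosen by one measured difference, that of Fkbp5 between entospletinib and vehicle, with the other genes added for their known place in the same response. The difference in Fkbp5 between treatments is therefore given as a description, with no test. Entospletinib is an inhibitor of spleen tyrosine kinase (SYK), a kinase that signals below immune receptors in leukocytes.

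There were 7 conditions, each 1 pool of kidney cells from 3 male C57BL/6 mice whose ages are not given in the sources used here. The control mice had untouched kidneys. All other mice had the clamp injury to the left kidney and were killed at day 1, 7 or 14, after either entospletinib or its vehicle (DMSO), first injected shortly before the injury. Day 1 mice received no further injection, whereas treatment went on daily to day 7 and every other day to day 14. Live cells were sorted for leukocytes by scatter before fixation, so kidney parenchymal cells in the data are those that came through that sort.

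The glucocorticoid receptor, encoded by Nr3c1, rests in the cytoplasm in a complex with heat shock protein 90 and moves to the nucleus when it binds cortisol or, in mice, corticosterone. There it raises the transcription of a set of target genes and lowers that of many inflammatory genes. Fkbp5 encodes FKBP51, a co-chaperone that lowers the receptor's affinity for hormone and so closes a feedback loop, and it is one of the most widely used readouts of receptor activity in leukocytes and kidney.

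A total of 120281 cell barcodes were deposited, of which 79389 (66.0%) passed the study's limits, between 5806 and 20571 per condition. Marker genes placed 62966 of them (79.3%) in 16 classes, named here with "-like", and 20429 were macrophage-like. The 7 conditions differed in depth and RNA makeup. Median counts per kept cell were 2930 in the control and 2432 to 2733 after vehicle, against 2071.5, 2742 and 960 after entospletinib at days 1, 7 and 14. Ribosomal protein gene counts alone excluded 4.23% to 8.53% of the barcodes that met every other limit in the control and vehicle pools. After entospletinib the same shares were 29.0%, 12.1% and 24.0% at days 1, 7 and 14. The entospletinib day 14 pool was the shallowest, and 29.8% of its kept cells could not be placed, against 16.5% after vehicle. Cells of every condition were divided over 8 sublibraries, 0 cell names were duplicated, and 14941 barcodes repeated a combination of wells already seen in another sublibrary. Each sublibrary holds a part of the cells of every pool, and the spread over sublibraries within a pool is technical error. With 1 pool per condition, treatment, animals and handling of a pool cannot be told apart, and no difference between conditions has a replicate check or a test.

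Promoter windows were read for the members whose levels are described further on, to show the bases around a start site of Fkbp5, on which the choice of genes rested, and of Tsc22d3, and the 1 member window that held a full receptor element, at Sgk1. Each is a RefSeq window of GRCm38.p6, 250 bases before to 50 after the start, printed 5′ to 3′ on the gene's strand. Capitals mark a glucocorticoid response element (GNACANNNTGTNC), its hemi-site (AGAACA, or TGTTCT on the other strand) or an E-box bound by clock proteins (CACGTG).
Fkbp5 promoter, chr17:28486100-28486399, minus strand: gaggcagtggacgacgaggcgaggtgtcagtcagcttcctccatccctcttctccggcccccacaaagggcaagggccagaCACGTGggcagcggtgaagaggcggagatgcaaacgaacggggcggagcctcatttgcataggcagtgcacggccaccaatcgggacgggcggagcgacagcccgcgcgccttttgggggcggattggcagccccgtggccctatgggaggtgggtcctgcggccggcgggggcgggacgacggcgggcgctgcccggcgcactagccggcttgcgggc
Tsc22d3 promoter, chrX:140600473-140600772, minus strand: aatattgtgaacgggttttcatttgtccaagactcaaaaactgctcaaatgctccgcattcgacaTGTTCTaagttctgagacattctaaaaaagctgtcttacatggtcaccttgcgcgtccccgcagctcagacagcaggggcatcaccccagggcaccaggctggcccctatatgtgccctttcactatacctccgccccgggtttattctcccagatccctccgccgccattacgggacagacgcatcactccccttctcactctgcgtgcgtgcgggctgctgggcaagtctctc
Sgk1 promoter, chr10:21993640-21993939, plus strand: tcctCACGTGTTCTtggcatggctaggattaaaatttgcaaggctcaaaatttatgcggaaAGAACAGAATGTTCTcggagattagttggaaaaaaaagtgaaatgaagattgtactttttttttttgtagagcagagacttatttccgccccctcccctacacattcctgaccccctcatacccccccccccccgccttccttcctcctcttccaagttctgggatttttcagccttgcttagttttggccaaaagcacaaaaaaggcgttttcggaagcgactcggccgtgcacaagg
The Fkbp5 window held 1 E-box, no hemi-site and no full element. The Tsc22d3 window held 1 hemi-site, whereas 2 further windows of this gene, at other start sites, held none. In the Sgk1 window the full element read GAACAGAATGTTC, 2 of the 3 hemi-sites lay at its ends, and the other hemi-site overlapped the E-box. Among 32851 RefSeq windows of this length, searched on both strands, 0.475% held the full element, 19.0% a hemi-site and 7.15% an E-box. A match to these letters is a description of the window only, and bases outside it were not searched. Of the 8 members 6 had windows to search, 14 in all, and Zbtb16 was among those without one.

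Fkbp5 lies on chromosome 17 from 28399094 to 28517527 (GRCm38, minus strand), and the other members described most, Zbtb16 and Tsc22d3, on chromosome 9 from 48654297 to 48836222 (minus strand) and on chromosome X from 140539528 to 140600659 (minus strand). Per1 is on chromosome 11 from 69095217 to 69109960, Klf9 on chromosome 19 from 23141226 to 23168134 and Sgk1 on chromosome 10 from 21882184 to 21999903, all on the plus strand. Ddit4 is on chromosome 10 from 59949669 to 59951834 on the minus strand. Counts are of transcripts, from poly(A) RNA, anywhere in the gene.

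The receptor gene was present in macrophage-like cells of every condition, and its level differed little between treatments at days 1 and 14. Levels are given as CPM, the gene's share of all counts summed over the cells of a class put on one scale, with an exact Poisson 95% interval that covers counting error only. Nr3c1 stood at 431 CPM in the control, at 349, 219.6 and 274 CPM after vehicle at days 1, 7 and 14, and at 327, 387 and 291 CPM after entospletinib. Over the 8 sublibraries it ran from 179.9 to 253 CPM (median 222) after vehicle at day 7 and from 362 to 410.1 CPM (median 389) after entospletinib, so that these groups did not overlap. At day 14 the sublibraries ran from 249 to 304 CPM after vehicle and from 252 to 316 CPM after entospletinib, an almost complete overlap.

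Fkbp5 followed another course. In macrophage-like cells its level was 406 CPM in the control (395 to 418), and it was lower in each vehicle pool, at 167, 61.4 and 76.3 CPM at days 1, 7 and 14. With entospletinib it was 279 CPM at day 1 and 184 CPM at day 7, between vehicle and control, and 859 CPM (824 to 895) at day 14, above the control. The 8 sublibraries of the control ran from 388 to 431 CPM with a median of 404. Those of vehicle at day 14 ran from 68.5 to 86.1 CPM (median 75.5), and those of entospletinib at day 14 from 705 to 932 CPM (median 875). The lowest entospletinib sublibrary was thus far above the highest vehicle one. At day 7 the ranges were 43.1 to 76.5 CPM (median 62.6) after vehicle and 162 to 209 CPM (median 178) after entospletinib. At day 1 they were 147 to 186 CPM (median 165) and 232 to 307 CPM (median 285). No day had an overlap between the treatments' sublibraries.

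**Figure D1:**
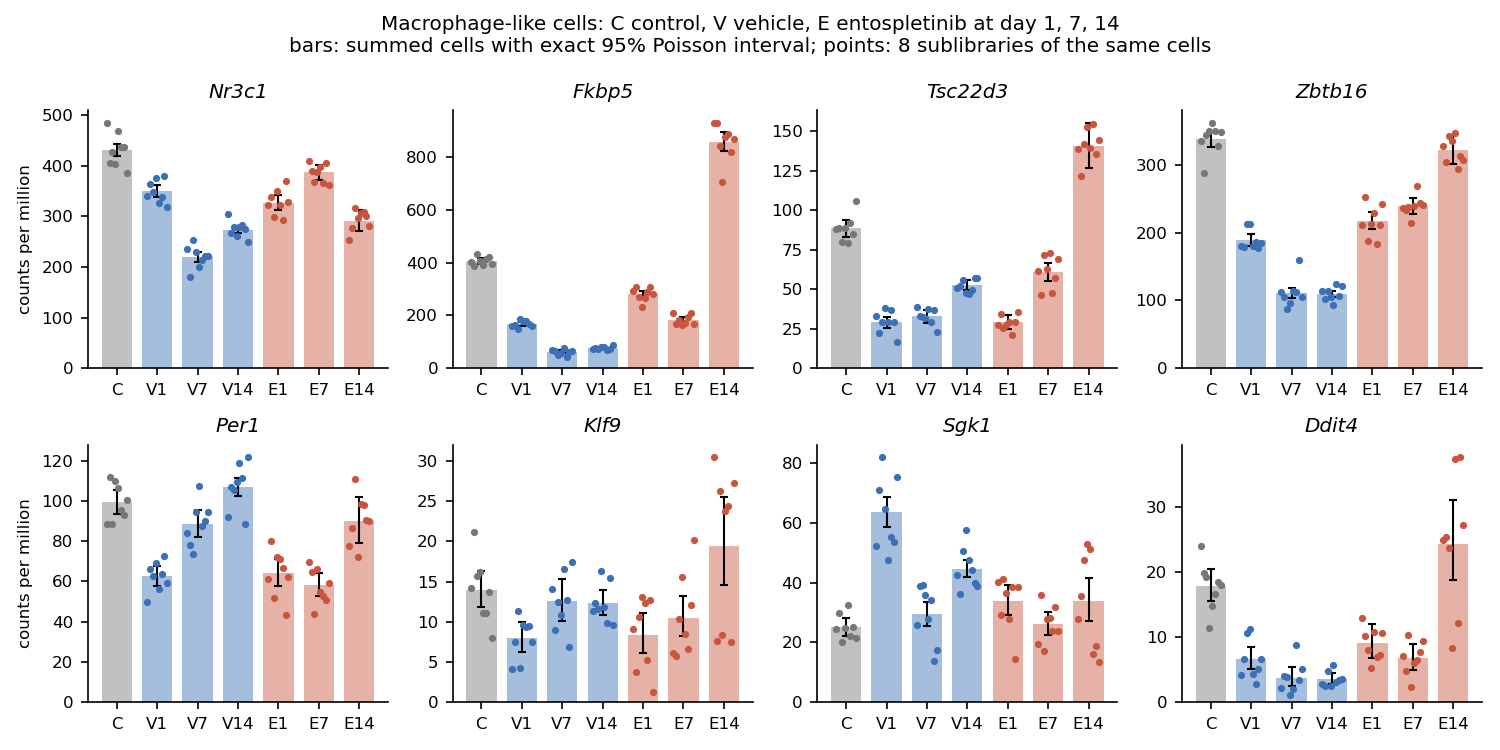
Levels of the 8 genes in macrophage-like cells (CPM, linear axes from 0, 1 panel per gene) in the control (C) and at days 1, 7 and 14 after vehicle (V) or entospletinib (E). Bars are the summed cells with exact Poisson 95% intervals, and points the 8 sublibraries. Fkbp5 stands furthest below the control after vehicle (61.4 CPM at day 7) and stands at 859 CPM after entospletinib at day 14.

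Ratios were taken on the log2 scale with 0.5 counts added. They are given relative to the median of all genes whose mean over conditions reached 50 CPM in the class. Exceptions are ratios given with an SD or an interval and those compared across classes, which were not set against that median. The ratio of entospletinib over vehicle for Fkbp5 was 0.74 at day 1 (SD 0.20 over 8 sublibraries), 1.58 at day 7 (SD 0.33) and 3.49 at day 14 (SD 0.18, 95% interval 3.40 to 3.59), the last an 11.3-fold difference. Relative to the median of all genes these were 0.86, 1.24 and 3.42. Fkbp5 stood 21st of 3400 genes at day 1, 3rd at day 7 and 1st at day 14, an order that the choice of the gene used. The first barcoding round gave a further split into wells, 6 for the control and 7 for each other condition. In wells Fkbp5 ran from 775 to 944 CPM (median 841) after entospletinib at day 14 and from 70.0 to 80.3 CPM (median 76.1) after vehicle, without overlap, and at day 7 from 165 to 218 CPM and from 41.8 to 105 CPM, again apart. At day 1 the wells overlapped, with 209.5 to 339.9 CPM after entospletinib and 141 to 218 CPM after vehicle.

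Vehicle was also compared with the uninjured control, a contrast that shares the vehicle pools with the one above and the control pool among its 3 days. Relative to all genes, Fkbp5 was lower by a log2 ratio of -1.41 at day 1, -2.42 at day 7 and -2.32 at day 14. At day 7 this was the lowest ratio of all 3400 genes. All 8 sublibraries had this direction at each of the 3 days.

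Tsc22d3 encodes GILZ, a leucine zipper protein that mediates part of the anti-inflammatory action of glucocorticoids. Its level in macrophage-like cells was 88.5 CPM in the control, 29.0, 32.7 and 52.4 CPM after vehicle, and 29.0, 60.8 and 141 CPM after entospletinib at days 1, 7 and 14. At day 1 the treatments overlapped, with sublibraries from 16.7 to 37.9 CPM (median 29.3) and from 21.0 to 35.8 CPM (median 28.2). At day 14 the sublibraries ran from 46.8 to 57.4 CPM (median 51.4) after vehicle and from 122 to 155 CPM (median 141) after entospletinib, without overlap. The relative log2 ratio of entospletinib over vehicle was 0.11, 0.55 and 1.35 at the 3 days, and that of vehicle over control -1.73, -1.13 and -0.67.

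Zbtb16 encodes PLZF, a zinc finger repressor known for its part in innate-like T cells and as a strong glucocorticoid target in several tissues. It was at 338 CPM in control macrophage-like cells, at 189, 110.5 and 109.7 CPM after vehicle, and at 218, 239 and 322 CPM after entospletinib. At day 14 its sublibraries ran from 93.1 to 124 CPM (median 110.0) after vehicle and from 293 to 347 CPM (median 320.1) after entospletinib, which overlapped the control's range of 288 to 362 CPM (median 346). Without its lowest sublibrary the control ran from 328 CPM, above 5 of the 8 entospletinib sublibraries. At day 1 the treatments overlapped, with 178 to 212 CPM and 184 to 252 CPM. Relative log2 ratios of entospletinib over vehicle were 0.32, 0.77 and 1.48, and those of vehicle over control -0.96, -1.30 and -1.53. Like Fkbp5, Zbtb16 was highest in the control among the uninjured and vehicle pools, but at day 14 after entospletinib it was near the control rather than above it.

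Per1 encodes a component of the circadian clock that is also a direct receptor target. It did not follow Fkbp5. Its level was 99.4 CPM in the control, 62.5, 88.6 and 107 CPM after vehicle and 64.2, 58.1 and 90.0 CPM after entospletinib, and at day 7 the sublibraries ran from 73.8 to 108 CPM (median 88.8) after vehicle against 43.8 to 69.7 CPM (median 57.1) after entospletinib. Split by wells the treatments overlapped, with 47.0 to 163 CPM and 27.6 to 82.8 CPM. The relative log2 ratios of entospletinib over vehicle were 0.15, -0.95 and -0.32, and the day 7 value was -1.01 without sublibrary s1 or without s2. The day 14 direction did not hold in the largest cluster of these cells. There Per1 was higher after entospletinib (84.2 against 51.6 CPM), as given with the clusters further on. The time of day at which the mice were killed is not given in the sources used here.

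The last 3 members were low in macrophage-like cells, with means under 50 CPM, and entered no count of genes at that limit. Ddit4, whose product REDD1 inhibits the growth kinase mTORC1, was at 17.9 CPM in the control, 6.63, 3.74 and 3.59 CPM after vehicle and 9.11, 6.82 and 24.4 CPM after entospletinib. Its day 14 difference rested on 65 counts against 75, with a log2 ratio of 2.77 (2.26 to 3.26), and its sublibraries ran from 8.32 to 37.7 CPM after entospletinib and from 2.54 to 5.74 CPM after vehicle. Sgk1, a kinase that raises sodium uptake in the collecting duct under mineralocorticoid and glucocorticoid control, was lower after entospletinib than after vehicle over all macrophage-like cells. It was at 25.1 CPM in the control, 63.4, 29.4 and 44.6 CPM after vehicle and 34.0, 26.1 and 33.7 CPM after entospletinib. Its log2 ratio of vehicle over control at day 1 was 1.34 (1.13 to 1.54). Between treatments its sublibraries overlapped at days 7 and 14, though not at day 1. Within the clusters described further on, Sgk1 at day 14 was lower after entospletinib in clusters 0 (16.9 against 19.4 CPM) and 3 (25.2 against 50.4 CPM). It was higher in cluster 6 (88.9 against 72.1 CPM). At day 7 it was higher in clusters 0 (20.2 against 13.4 CPM) and 6 (54.0 against 45.5 CPM) and lower in cluster 3 (22.6 against 38.4 CPM). Klf9, a Krüppel-like transcription factor induced by glucocorticoids and thyroid hormone, stayed between 7.98 and 19.5 CPM in all 7 conditions, and its sublibraries overlapped between treatments at each day.

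Set against all genes, the members can be counted past a fold, here a relative log2 ratio of at least 1 in size. Of the 8 members 5 had a mean of at least 50 CPM in macrophage-like cells. With entospletinib over vehicle, 0 of the 5 were past the fold in the higher direction at day 1, where 0.412% of 3400 genes were, 1 at day 7 (Fkbp5), against 0.235% of genes, and 3 at day 14 (Fkbp5, Zbtb16 and Tsc22d3), against 0.676%. In the lower direction there were 0 members at each day, beside 0.5%, 1.94% and 1.18% of genes. Since Fkbp5 was picked on this contrast, nothing is read from these counts. The median relative ratio of the 5 was 0.15, 0.55 and 1.35, where that of all genes is 0 by construction. For vehicle over control, 2 members were past the fold in the lower direction at day 1 (Fkbp5 and Tsc22d3), 3 at day 7 (with Zbtb16) and 2 at day 14 (Fkbp5 and Zbtb16), beside 5.76%, 1.44% and 1.68% of genes. In the higher direction there were 0 members, beside 6.71%, 3.68% and 3.29% of genes. The earlier results that led to the choice of these genes showed both contrasts for Fkbp5.

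**Figure D2:**
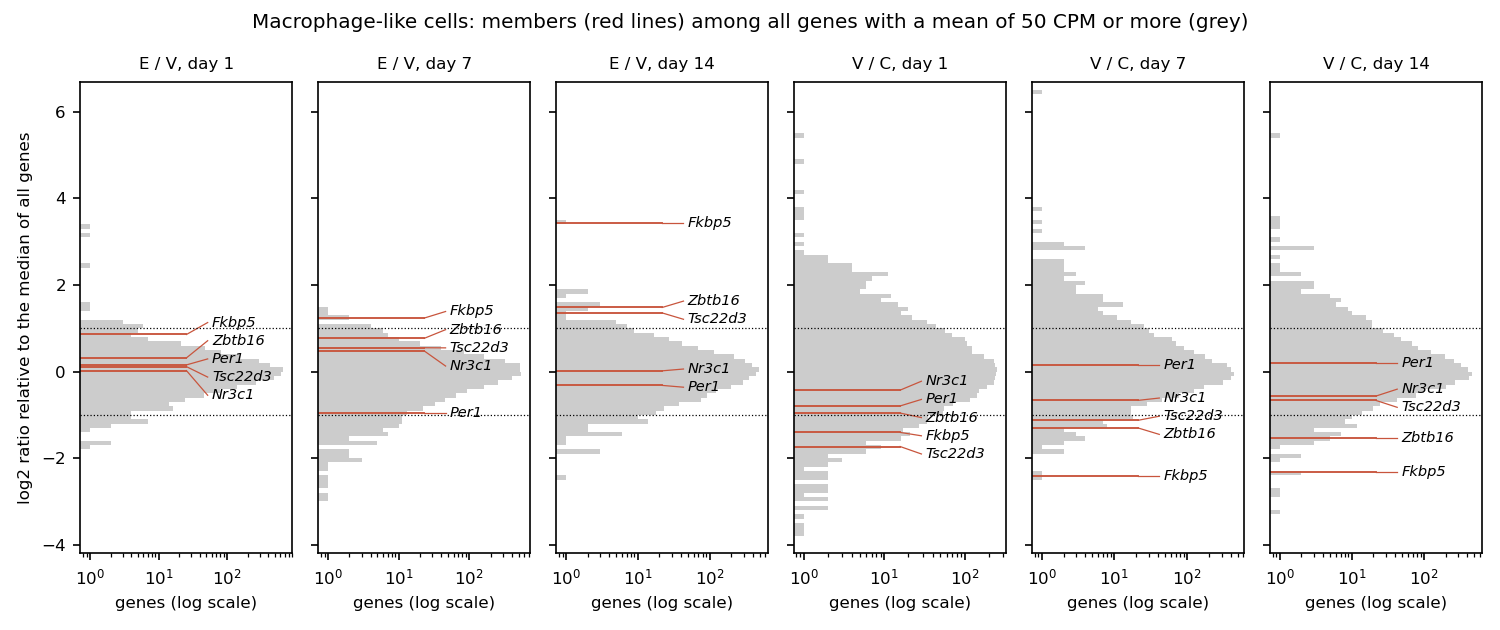
Relative log2 ratios (vertical axis) in macrophage-like cells, entospletinib over vehicle (E / V) and vehicle over control (V / C) at days 1, 7 and 14. Grey is a histogram of all 3400 genes (number of genes on a log axis), red lines are the 5 members among them and dotted lines mark a ratio of 1 in size. Fkbp5 stands highest at day 14 with 3.42 and lowest in vehicle over control at day 7 with -2.42.

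Because the depth of the pools differed, each cell was also thinned to 500 counts. The share of macrophage-like cells with at least 1 Fkbp5 count was then 18.2% in the control, 8.31%, 3.18% and 4.00% after vehicle, and 13.3%, 8.92% and 31.9% after entospletinib. The exact Clopper-Pearson 95% interval at day 14 was 29.9% to 33.9% after entospletinib and 3.54% to 4.50% after vehicle. Without thinning the shares at day 14 were 51.3% and 18.1%, at median depths of 1019 and 2733 counts, so the shallower pool had the larger share. Thinning left out 129 macrophage-like cells of the entospletinib day 14 pool and 6 of the vehicle pool. B-cell-like cells, a class with low Fkbp5, had thinned shares from 1.90% to 6.36% over the 7 conditions, and the highest of these was again entospletinib at day 14. Tsc22d3 shares in macrophage-like cells at day 14 were 7.01% and 2.77%, and those of Zbtb16 14.9% and 5.21%.

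**Figure D3:**
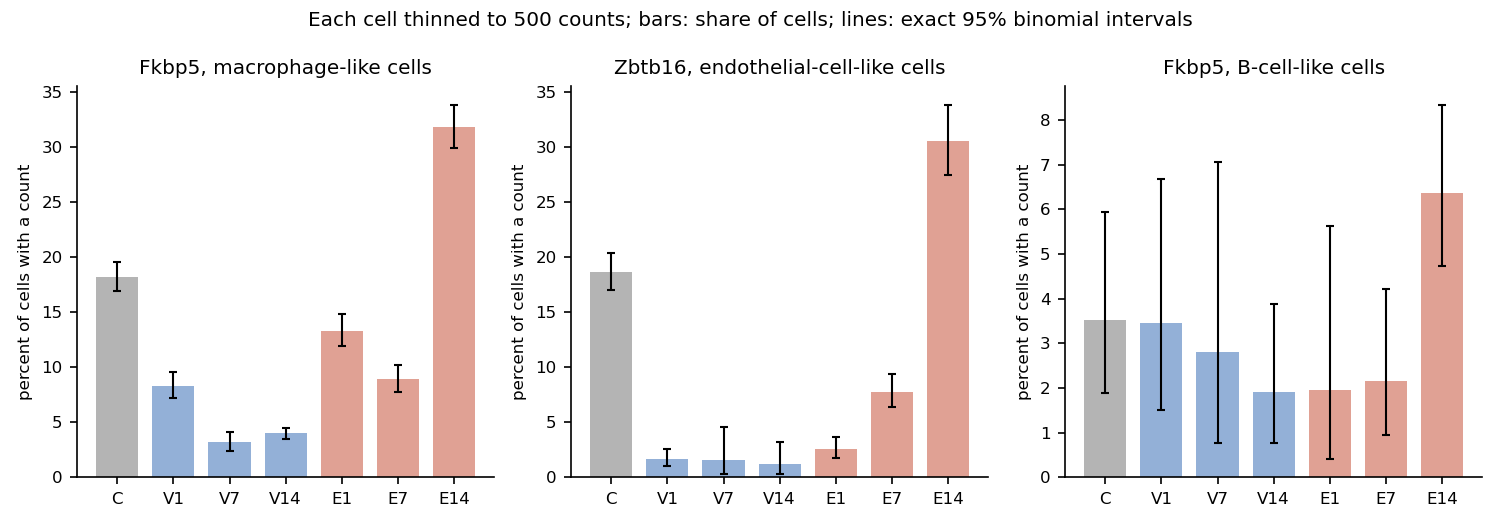
Share of cells with at least 1 count after thinning to 500 counts per cell (percent, with exact 95% intervals), for Fkbp5 in macrophage-like cells, Zbtb16 in endothelial-like cells and Fkbp5 in B-cell-like cells in the 7 conditions. At day 14 Fkbp5 was seen in 31.9% of macrophage-like cells after entospletinib and 4.00% after vehicle.

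Of the macrophage-like cells 88.8% fell into 3 clusters made without the members, and the rest lay in other clusters. The leading genes of the 3 included Abca9, Ms4a7 and Apoe (cluster 0), Mmp12 and Nes (cluster 3) and Cd83 and Fosb (cluster 6). The shares of the clusters differed between days, between treatments and from the control. In the control clusters 0, 3 and 6 had 41.3%, 44.1% and 7.68% of the cells. At day 1 cluster 3 had 75.7% of the cells after vehicle and 71.9% after entospletinib, and cluster 0 had 3.04% and 13.2%. At day 7 cluster 3 had 8.79% and 26.3%, and cluster 6 had 29.7% and 15.3%. At day 14 cluster 0 had 47.6% and 73.2%, and cluster 6 had 36.6% and 15.5%. In clusters 0, 3 and 6 Fkbp5 was 470, 385 and 317 CPM in the control. After vehicle it was 170, 173 and 159 CPM there at day 1, and 58.3, 83.3 and 55.7 CPM at day 7. Fkbp5 at day 14 was 994 CPM after entospletinib and 85.7 CPM after vehicle in cluster 0. It was 889.7 and 99.7 CPM in cluster 3, and 484 and 61.7 CPM in cluster 6. The Fkbp5 difference between treatments was thus present inside each of the 3 and lowest in the one led by Cd83. Per1 at day 14 was higher after entospletinib in cluster 0, at 84.2 CPM (71.2 to 98.8) against 51.6 CPM (46.8 to 56.7). It was lower in cluster 3 (37.9 against 73.8 CPM) and cluster 6 (130 against 163 CPM). At day 7 Per1 was lower after entospletinib in clusters 0 (40.1 against 52.4 CPM), 3 (46.3 against 67.3 CPM) and 6 (131 against 146 CPM). At day 14 the macrophage-like cells also differed in median mitochondrial share (3.83% after entospletinib, 6.22% after vehicle), in ribosomal protein gene share (0.741% and 0.562%) and in the share of the nuclear RNA Malat1 (2.91% and 1.86%). Genes with a span of 100 kb or more, which include Fkbp5 and Zbtb16, had a median relative ratio of 0.02 at day 14 (5th to 95th percentile -0.53 to 0.44). Summed markers of other classes in these cells moved as well. Monocyte markers were at 242 CPM after entospletinib and 493 CPM after vehicle, proximal tubule markers at 106 and 57.1 CPM, distal tubule or collecting duct markers at 57.4 and 28.7 CPM, and loop of Henle markers at 48.0 and 25.8 CPM. Neutrophil markers were at 141 and 194 CPM, endothelial markers at 116 and 84.0 CPM, and B cell markers at 173 and 156 CPM. The part of depth, cluster makeup, other classes' RNA and RNA makeup in the Fkbp5 difference beyond these values was not tested.

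Fkbp5 was higher after entospletinib at day 14 in other cell classes too. All 12 classes with at least 50 cells in both pools had a higher level, with log2 ratios from 1.14 (T-cell-like) to 3.49 (macrophage-like), and all 12 intervals lay above 0. After thinning the share was higher in 12 of 12. Among leukocytes the level was 331 CPM against 38.5 CPM in monocyte-like cells, 312 against 45.2 CPM in type 2 conventional dendritic cell (cDC2)-like cells and 305 against 139 CPM in T-cell-like cells. Among kidney cells it was 364 against 60.9 CPM in proximal-tubule-like cells, on 201 and 18 counts, and 185 against 58.2 CPM in distal-tubule- or collecting-duct-like cells. RNA from broken cells can carry a gene between classes, so 5 leading genes of macrophage-like cells that the gate had not used (Slco2b1, Col14a1, Itga9, Cadm1 and Axl) were followed: after entospletinib at day 14 they were at 4.76% of their macrophage level in B-cell-like, 3.82% in T-cell-like and 5.79% in proximal-tubule-like cells, where Fkbp5 was at 18.7%, 35.5% and 42.4% of its own. They were at 11.6% in monocyte-like, 12.7% in nonclassical-monocyte-like and 17.98% in cDC2-like cells, with Fkbp5 at 38.6%, 40.6% and 36.3%. In type 1 conventional dendritic cell (cDC1)-like cells the order was the other way, with the 5 genes at 54.0% and Fkbp5 at 33.6%. The 5 genes were also at 45.4% in control cDC1-like cells and at 29.3% to 51.6% after vehicle. Whether cDC1-like cells express these genes themselves was not tested.

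At day 7 Fkbp5 was higher after entospletinib in 11 of 11 classes, 10 with intervals above 0, and the thinned share in 10 of 11. Day 1 was mixed, with 9 of 14 classes higher, 4 with intervals above 0 and 1 below, and the thinned share was higher in 7 and lower in 7. For vehicle over control the level was lower in 13 of 14 classes at day 1, 11 of 11 at day 7 and 12 of 13 at day 14, or 13 of 13 by the ratio with 0.5 counts added. Neutrophil-like cells made both exceptions, with 174 CPM after vehicle at day 1 and 76.6 CPM, a nearly equal level, at day 14 against 76.2 CPM in the control, where 59 cells gave only 6 counts. All classes of one pool share its mice and handling, so these counts are not independent.

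**Figure D4:**
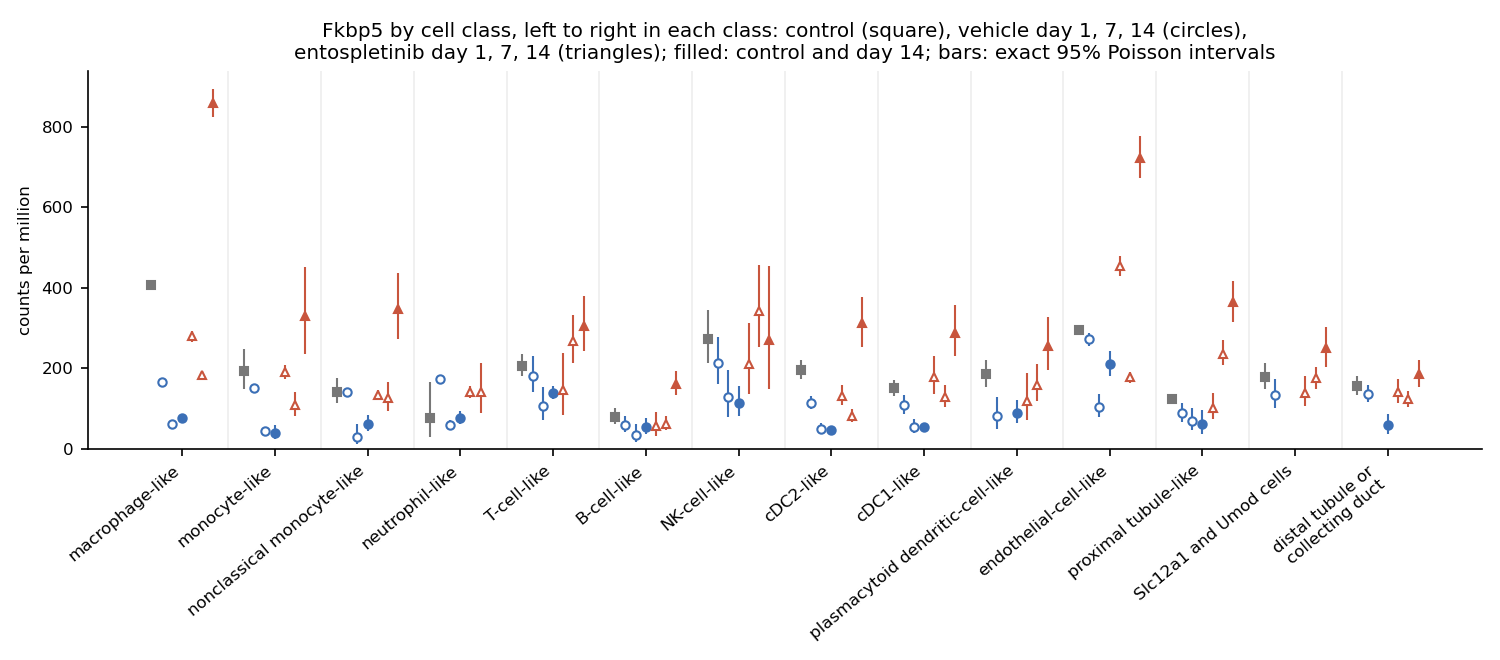
Fkbp5 level (CPM, linear axis, exact Poisson 95% intervals) by cell class in the 7 conditions, control as squares, vehicle as circles and entospletinib as triangles, for conditions with at least 50 cells. Entospletinib at day 14 lies above vehicle at day 14 in all 12 classes shown for both, with 859 against 76.3 CPM in macrophage-like cells and 161 against 54.0 CPM in B-cell-like cells.

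In endothelial-like cells Zbtb16 was far below the control after vehicle and above it after entospletinib at day 14. These cells numbered 2126 in the control, 1146, 190 and 320 after vehicle and 1229, 1335 and 874 after entospletinib. Zbtb16 stood at 439 CPM in the control and at 25.1, 28.3 and 50.5 CPM after vehicle, on 105, 15 and 44 counts. With entospletinib it was 46.5, 174 and 816 CPM. At day 14 the sublibraries ran from 21.9 to 77.6 CPM (median 55.5) after vehicle, from 736 to 939 CPM (median 780.1) after entospletinib and from 381 to 478 CPM (median 439.7) in the control. The 3 ranges were apart, vehicle lowest and entospletinib highest. Entospletinib over vehicle gave a log2 ratio of 4.00 (3.58 to 4.49, SD 0.59), a 16.0-fold difference, and relative to all genes 1.00, 2.46 and 4.02 at days 1, 7 and 14. At days 7 and 14 it was the highest of 3592 genes. The day 1 value lay at the fold and came to 0.80 to 0.99 under several other settings.

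For vehicle over control, Zbtb16 in endothelial-like cells had relative log2 ratios of -4.25, -3.84 and -3.12, the lowest of the 3592 genes at each of the 3 days. After thinning, the share of cells with a count was 18.7% in the control, 1.66%, 1.58% and 1.26% after vehicle and 2.61%, 7.79% and 30.6% after entospletinib, where B-cell-like cells had at most 1.19%. Within the cluster that held most of these cells (cluster 2, with Flt1, Plvap and Igfbp5 among its leading genes), Zbtb16 was 431 CPM in the control, 41.7 CPM after vehicle at day 14 and 794 CPM after entospletinib. That cluster held 95.2%, 88.8% and 88.0% of the endothelial-like cells in those pools. The 5 macrophage genes were at 11.7% of their macrophage level in endothelial-like cells after entospletinib at day 14, and Zbtb16 at 253% of its own. Median depth in this pool was 1038 counts, against 2307.5 after vehicle.

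**Figure D5:**
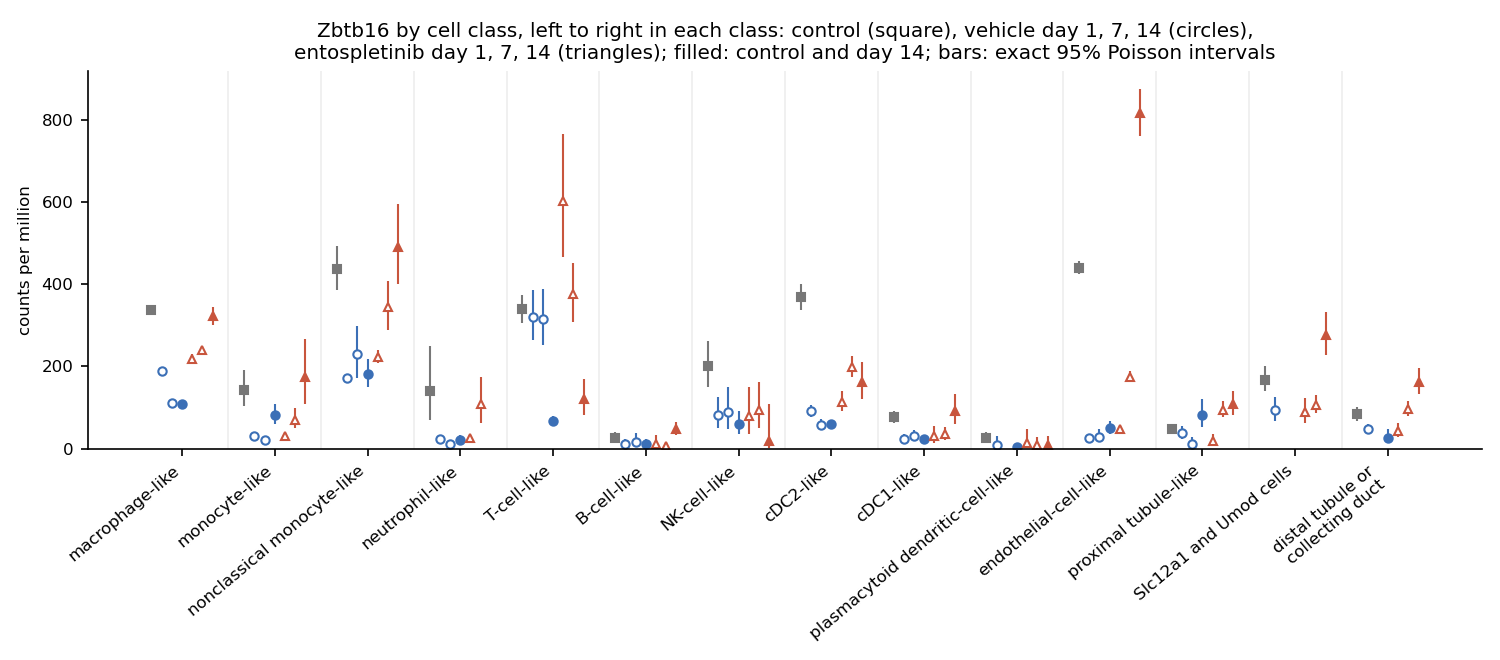
Zbtb16 level (CPM, linear axis, exact Poisson 95% intervals) by cell class, with the same symbols as for Fkbp5. In endothelial-like cells it stands at 439 CPM in the control, at 25.1 to 50.5 CPM after vehicle and at 816 CPM after entospletinib at day 14.

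The other members were less far apart in endothelial-like cells. Fkbp5 was 295 CPM in the control, 272, 104 and 211 CPM after vehicle and 454, 177 and 724 CPM after entospletinib, with relative log2 ratios between treatments of 0.85, 0.64 and 1.80. Its sublibraries at day 14 ran from 144 to 421 CPM (median 177) after vehicle and from 585 to 912 CPM (median 713) after entospletinib, without overlap. Tsc22d3 rested on 29 counts after vehicle at day 14 (33.3 CPM) and 104 after entospletinib (103 CPM), with relative ratios of 0.10, 0.51 and 1.64. The day 14 ratio of Tsc22d3 was much larger after thinning, as given in the closing section. Klf9 was 229 CPM in the control, 168, 125 and 134 CPM after vehicle and 161, 249 and 213 CPM after entospletinib, and Sgk1 189 CPM, 263, 174 and 139.9 CPM, and 248, 311 and 255 CPM. Their relative ratios at days 7 and 14 were 0.87 and 0.69 for Klf9 and 0.72 and 0.89 for Sgk1. The vehicle day 7 pool gave only 55 Fkbp5 and 28 Tsc22d3 counts here, and its Fkbp5 sublibraries ran from 0 to 228 CPM.

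Of the 8 members 6 had a mean of at least 50 CPM in endothelial-like cells, all but Per1 and Ddit4. With entospletinib over vehicle, Zbtb16 was past the fold in the higher direction at days 1 and 7, beside 0.529% and 0.974% of 3592 genes, and Zbtb16, Fkbp5 and Tsc22d3 at day 14, beside 2.28%. No member was past it in the lower direction, beside 0.0278%, 0.947% and 1.59%. For vehicle over control, Zbtb16 and Tsc22d3 were past the fold in the lower direction at day 1, Zbtb16 and Fkbp5 at day 7 and Zbtb16 at day 14, beside 1.45%, 0.724% and 1.42%. No member was past it in the higher direction, beside 1.39%, 0.919% and 1.25%. The call of Tsc22d3 at day 1 gave -0.96 without sublibrary s1 and -0.74 after thinning. At day 14 Tsc22d3 (-0.93) passed the fold without s1 (-1.04), without s4 (-1.22) and after thinning (-2.76).

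Across all classes Zbtb16 was higher after entospletinib at day 14 in 11 of 12, 9 with intervals above 0. Besides endothelial-like cells, the largest of these ratios was in distal-tubule- or collecting-duct-like cells (163 against 26.7 CPM) and the smallest in proximal-tubule-like cells (109 against 81.2 CPM), and nonclassical-monocyte-like cells had 489.8 against 182 CPM. NK-cell-like cells had 1 count against 20. For vehicle over control it was lower in 14 of 14, 11 of 11 and 12 of 13 classes at the 3 days, with proximal-tubule-like cells at day 14 the exception (81.2 against 48.2 CPM). Nr3c1 was higher after entospletinib in 11 of 11 classes at day 7 but in 2 of 14 at day 1 and 8 of 12 at day 14. Per1 was lower after entospletinib at day 14 in 11 of 12 classes, with intervals below 0 in 3, and endothelial-like cells were the exception. Macrophage-like cells are among the 11, but their makeup by cluster differed between the pools. In their largest cluster Per1 was higher after entospletinib (84.2 against 51.6 CPM). Tsc22d3 was higher in 7 of 14, 10 of 11 and 11 of 12 classes at days 1, 7 and 14.

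The members also differed in which class held most of them, taking the median level over the conditions with at least 50 cells of the class, for the 14 classes that had at least 5 such conditions. Most neighbouring classes in these orders overlapped over the conditions. Nr3c1 was highest in T-cell-like cells (median 958 CPM, 625 to 1294), above NK-cell-like cells (606 CPM) in all 7 conditions, and lowest in distal-tubule- or collecting-duct-like cells (73.5 CPM). Fkbp5 was highest in endothelial-like (272 CPM), NK-cell-like (214 CPM), macrophage-like (184 CPM) and T-cell-like cells (182 CPM), which overlapped, and lowest of the 14 in B-cell-like cells (59.6 CPM), below proximal-tubule-like cells (102 CPM) in 7 of 7 conditions. Ccr7-dendritic-cell-like cells, which had 50 cells only after vehicle at days 1 and 14, were lower still there, at 43.1 and 38.8 CPM against 59.6 and 54.0 CPM in B-cell-like cells. Its range over conditions was widest in macrophage-like cells, from 61.4 to 859 CPM.

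B-cell-like cells, low in Fkbp5, were highest of the 14 for Tsc22d3, with a median of 247 CPM (180.5 to 280.3), ahead of neutrophil-like cells (147 CPM) in 6 of 6 conditions, although their ranges overlapped. Zbtb16 was highest in T-cell-like cells (321 CPM), followed by nonclassical-monocyte-like (229 CPM) and macrophage-like cells (218 CPM). Per1 was highest in neutrophil-like (352 CPM) and then B-cell-like cells (153 CPM). Klf9 stood at 257 CPM in proximal-tubule-like cells, above endothelial-like cells (168 CPM) in 7 of 7 conditions. Sgk1 was highest in endothelial-like cells (248 CPM), above nonclassical-monocyte-like cells (134 CPM) in 7 of 7. Ddit4 was low throughout, from 6.82 CPM in macrophage-like to 34.6 CPM in NK-cell-like cells.

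Lists of related genes were counted in macrophage-like cells by the same fold, beside the shares of all genes given above. Of 20 partners of the receptor and handlers of its hormone, 14 had a mean of at least 50 CPM, and 0 were past the fold after entospletinib over vehicle at any day (medians -0.04, 0.09 and -0.07). With vehicle over control the chaperone genes Hsp90ab1 and Ptges3 were higher at day 1. Of 25 other genes known to be induced by glucocorticoids, 14 could be counted. None was past the fold in the higher direction after entospletinib, 0, 2 and 1 were in the lower one, and the medians were -0.41, -0.69 and -0.27, opposite in sign to those of the members. Il1r2, a decoy receptor for interleukin 1, had relative ratios of -0.63, -1.14 and -1.12. With vehicle over control 6, 4 and 4 of these genes were higher and 1, 0 and 0 lower. Those higher at more than 1 day were Cebpb, a transcription factor of myeloid cells (2.40, 1.82 and 1.49), Cdkn1a, a cell cycle inhibitor (2.20, 1.14 and 1.00), Nfkbia, the inhibitor of NF-κB (1.37, 1.04 and 0.98), and Mertk, a receptor for dying cells (-0.42, 1.12 and 1.19). Several of them are also induced by inflammatory signals.

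Of 13 inflammatory genes known to be lowered by glucocorticoids, 9 could be counted. With entospletinib 1, 2 and 2 were past the fold in the lower direction and 0 in the higher one, with medians of -0.25, -0.53 and -0.60. Ptgs2, which encodes cyclooxygenase 2, had -1.13, -2.15 and -1.46. With vehicle over control 7, 3 and 4 were higher, among them the chemokine genes Ccl2 (3.53, 2.94 and 2.40) and Cxcl2 (3.67, 2.44 and 1.53). Immediate early genes, which respond to tissue dissociation as well, had 10 of 13 counted, with 0, 1 and 2 lower after entospletinib and 0, 3 and 5 higher after vehicle over control, Fosb, Junb and Fos among them, and 1 lower at day 1. Of 15 clock genes and of 14 other FK506-binding proteins only 1 each had a mean of at least 50 CPM, with 0 past the fold. At a mean of at least 10 CPM, 7 clock genes could be counted and Bhlhe40 was lower after entospletinib at day 7, beside 2.37% of 8085 genes. With vehicle over control Tef and Nr1d2 were lower at day 1, beside 7.20%, and Bhlhe40 was higher at days 7 and 14, beside 4.28% and 3.76%. Among 6 FK506-binding proteins Fkbp2 was higher after entospletinib at day 14, beside 1.09%, and none was past the fold in vehicle over control. Of 10 hypoxia genes 1 was counted at 50 CPM, Ldha, with 1.64, 1.11 and 0.49 in vehicle over control. At 10 CPM 5 were counted, of which 4, 4 and 2 were higher in vehicle over control, beside 7.88%, 4.28% and 3.76% of genes. After entospletinib over vehicle 1, 3 and 1 were lower, beside 0.717%, 2.37% and 1.89%, Vegfa at each day and Slc2a1 and Pgk1 at day 7. Hsp90ab1, Ptges3 and the genes named at 10 CPM were chosen after their values were seen.

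The genes whose pattern over the 7 conditions was most like that of Fkbp5 in macrophage-like cells were Arhgap30 (Pearson r 0.95 of log2 CPM with 10 CPM added), Ciz1 (0.95), Tm6sf1 (0.94), Dok3 (0.94) and Rassf2 (0.94). These are descriptions over 7 pools that share their libraries and differ in depth. Of 3399 genes 22 (0.647%) had an r of at least 0.9, where the median was 0.27. Zbtb16 was the seventh (0.93), whereas Tsc22d3 was 0.70, Nr3c1 0.50 and Per1 -0.04. These 5 genes spanned smaller ranges than Fkbp5: Arhgap30 lay between 318 and 518 CPM, and Rassf2 between 189.5 and 520.1 CPM.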

How the data were processed

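Mouse kidney cells were counted with a combinatorial barcoding kit (Parse Evercode). Reads were aligned by the authors to mm10 and assigned to cells and conditions with the Parse pipeline. The deposited table holds raw counts of transcripts for each gene in each cell, not normalized by the authors, 388617036 in all. Sums per cell equalled the deposited transcript counts for all 120281 barcodes. The annotation release is not given in the sources used here. The 8 samples hold all conditions mixed, so a cell's condition came from the deposited cell table.

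After the study's limits, a kept cell had over 300 genes, under 20000 counts, under 25% mitochondrial counts and under 1.5% ribosomal protein gene counts. Doublets were not called, and 8.53% of kept cells with markers of more than 1 class were set aside as mixed. Classes came from a gate on 93 markers of 18 classes, of which 16 held cells. Cells with Slc12a1, Umod and Cldn16 had only 2 of these among their 100 leading genes and are given no class name. Clusters were made with 40 principal components, 15 neighbours and 2000 features without the members by Leiden clustering (resolution 1, 31 clusters). Counts were summed per class and condition as CPM. Fold calls used a mean of at least 50 CPM over conditions and a relative log2 ratio of at least 1. Of the 3400 genes 3392 had a span in GENCODE vM21.

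The members and lists were chosen with earlier results of these data known. Named by rule were the 8 members, those of each list past the fold at 2 or more days with the same sign (at most 4), and the 5 genes most like Fkbp5. Hsp90ab1, Ptges3 and the genes named at 10 CPM fell outside this rule. No test was made, since each condition is 1 pool. Alternatives were other filters and limits, thinning, a stricter gate, clusters, TMM (edgeR 4.0.16) and DESeq2 1.42.0 size factors, and leaving out each sublibrary, and, added after seeing the data, cells weighted equally, no gate and no centring on the median. Scripts were tested on simulated data. Python 3.11.15, numpy 2.4.6, pandas 2.3.3, scipy 1.17.1, scikit-learn 1.9.0, igraph 0.11.9, leidenalg 0.10.2, matplotlib 3.10.9 and R 4.3.3 were used.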

Additional observations from a re-analysis of the deposited data

Results flagged for a closer look

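Within single conditions, the highest or lowest of the 8 sublibraries stood apart in 2 of 56 sets of macrophage-like values (8 genes in 7 conditions), by a gap above 0.526 of the whole range, and chance gives about 5%. In the control, Zbtb16 in sublibrary s2 was 288 CPM, with the others at 328 to 362 CPM. In vehicle at day 7, Zbtb16 in sublibrary s7 was 159 CPM on 138 counts, with the others at 87.2 to 114 CPM.

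Barcodes that failed the limits entered no comparison, apart from the alternative without the ribosomal limit, and Fkbp5 was above the control level (85.3 CPM) in 3 of the 6 injured pools there. It was 103 CPM (100 to 107, exact Poisson 95% interval) with vehicle at day 1, 138 CPM (133 to 143) with entospletinib at day 1 and 203 CPM (195 to 212) with entospletinib at day 14. These barcodes hold cells of all classes and fragments of cells, and their makeup was not tested.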

How the results depend on the processing

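Of 48 relative log2 ratios in macrophage-like cells (8 genes in 6 comparisons), all 48 moved by less than 1 SD over sublibraries with a filter of 10 CPM, with more than 500 genes per cell, without the ribosomal limit, with a stricter gate, with DESeq2 size factors and with cells weighted equally. The count was 44 after thinning, 47 with clusters, 47 with TMM and 37 without centring on the median. At most 4 of 48 changed sign in any of these settings, each of them 0.19 or less in size as reported. Leaving out 1 sublibrary gave 384 of 384 values within that spread, 6 of them with the other sign. Since 1 of 8 parts has little weight, that count was nearly fixed in advance, and nothing is read from it. Fkbp5 between entospletinib and vehicle was then at 0.83 to 0.92, 1.17 to 1.30 and 3.39 to 3.47 at days 1, 7 and 14. Without centring, Fkbp5 was 1.58 at day 7, and -2.72 for vehicle over control at day 7. Over all cells with no gate, where class makeup differs by construction, Fkbp5 was 0.53 at day 1 and 2.81 at day 14 for entospletinib over vehicle, and -0.84, -1.96 and -1.88 for vehicle over control at the 3 days. There 14 of 48 values stayed within the spread and 12 had the other sign. Ddit4 for vehicle over control at day 1 turned from -1.55 to 0.39, and at day 7 Klf9 turned from -0.60 to 1.24 between treatments and from 0.16 to -1.72 for vehicle over control. The cause was not tested. Some values changed side of the fold: Zbtb16 for vehicle over control at day 1 (-0.96) was -1.01 at 10 CPM, and it reached the fold without the ribosomal limit too, Zbtb16 between treatments at day 7 (0.77) was 1.11 without centring, and Tsc22d3 for vehicle over control at day 7 (-1.13) was -0.97 after thinning. Thinning also took Ddit4 for vehicle over control at day 1 from -1.55 to -0.98, and Klf9 between treatments at day 14 from 0.60 to 1.42. In endothelial-like cells at day 14 it gave Zbtb16 4.93 between treatments and -4.09 for vehicle over control, and Tsc22d3 3.44 and -2.76. At a mean of at least 10 CPM, 4 members were past the fold at day 14 with entospletinib over vehicle, with Ddit4 added, beside 1.09% of 8085 genes. With vehicle over control, 4, 4 and 3 were then lower at days 1, 7 and 14, beside 7.20%, 1.40% and 1.43%, and Sgk1 was higher at day 1, beside 7.88%. Low counts limit Ddit4, Klf9 and Sgk1 in macrophage-like cells and the vehicle day 7 pool in endothelial-like cells.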
